A study of Rattus norvegicus with 6 samples.

Results

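The genes described here encode the enzymes that charge transfer RNAs with amino acids and a group of enzymes that modify tRNA bases. They were measured in a rat keratinocyte line after heavy ion irradiation. Members were taken by gene symbol: symbols of a letter followed by ars, with or without a final 1 or 2, that name an aminoacyl-tRNA synthetase, all symbols starting with Trmt, and Farsa, Farsb, Eprs1, Qtrt1, Pus1 and Nsun2. This gave 48 of the 14217 genes that the array names by a single symbol, namely 19 cytosolic synthetases, 13 mitochondrial synthetases and 16 tRNA modification enzymes. Lars2, Mars2, Pars2, Qtrt2 and Pus7 were not analysed here, since no probe set carried them as its single symbol. Each gene was represented by its probe set with the highest mean signal, and all 48 passed the filter on low signal.

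The cells were an immortalized line of keratinocytes, which make up most of the epidermis, derived from back skin of newborn male Sprague-Dawley rats. The 3 unirradiated samples had no treatment, and the others, 3 irradiated samples, were given a dose of 3 Gy of 56Fe, an energetic heavy ion, at 1.01 GeV per nucleon. Each sample was hybridised to 1 Affymetrix rat 230 2.0 array. The labels name neither the time from irradiation to RNA extraction nor the origin of the replicates, which may not be separate cultures. The p-values therefore rest on the spread between these samples alone, and that spread may be technical. All samples came from this 1 line. Of 12 keratinocyte markers 11 were measured, and all 11 lay above the filter on low signal. Limma, the linear model test used throughout, called 5 of them lower and 0 higher; their summed intensity was 32050 to 36780 in unirradiated and 26070 to 29250 in irradiated arrays. Summed intensities of 6 fibroblast markers were 426 to 501 and 352 to 384.5. Most of that sum was Col3a1, which was called lower (mean 413 without and 295 with irradiation), while the dim Col1a1 (17.3 and 36.1) and Col1a2 (4.43 and 10.5) read higher without overlap and Dcn read 4.87 and 10.2. The immune markers Ptprc, Cd74, Lyz2 and Cd68 had mean intensities of 3.23, 10.2, 15.5 and 13.3. The endothelial markers Pecam1 and Kdr had means of 2.87 and 5.77. None of these lay above the filter. Of 4 melanocyte markers 1 did, Pmel, with a mean of 22.65 and no call. The part of these marker differences in the results below was not tested. Log2 signals of 2 arrays correlated at 0.984 to 0.988 in the same group and at 0.980 to 0.985 in different groups.

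A synthetase joins an amino acid to its tRNA in an ATP-dependent reaction, and separate nuclear genes mostly encode the enzymes for cytosolic and for mitochondrial translation. In the cytosol, several synthetases sit together in a multi-synthetase complex held by the scaffold proteins AIMP1, AIMP2 and EEF1E1 (also called AIMP3). After transcription, tRNAs are modified at many bases: methylation of an adenosine in the T-loop, by the TRMT6 and TRMT61A heterodimer, is known to stabilise the initiator tRNA, and queuine inserted by the enzyme of QTRT1 and its partner QTRT2 replaces a guanine in the anticodon.

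After irradiation the mRNAs of both subunits of the T-loop adenosine methyltransferase, Trmt6 and Trmt61a, fell by about the same amount, and that of Qtrt1 fell by 1 of its 2 probe sets. None of the 32 synthetase genes passed the test. Over the 48 members, 3 fell, 0 rose and 45 did not pass, at an adjusted p under 0.05. Over all 18625 tested probe sets, 2.07% were called, 0.564% lower and 1.5% higher. The 3 genes that fell are all modification enzymes, of which 16 were tested. Qtrt1 is counted among them by 1 probe set only, and with its 2 probe sets averaged it did not pass (limma adjusted p = 0.37). In bulk RNA, fewer cells that express a gene and less mRNA per cell cannot be told apart.

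The promoters of these 3 genes are shown because all of them hold the E-box CACGTG, a palindrome bound by many basic helix-loop-helix factors. The stretches run from 100 bases before the annotated gene start through 30 bases from the start on, 5′ to 3′ on the gene's strand, with E-boxes in capitals. They come from RefSeq, rat assembly GRCr8, at chr3:140539480-140539609 (minus strand) for Trmt6, chr6:136558317-136558446 (plus) for Trmt61a and chr8:28242607-28242736 (plus) for Qtrt1.
Trmt6: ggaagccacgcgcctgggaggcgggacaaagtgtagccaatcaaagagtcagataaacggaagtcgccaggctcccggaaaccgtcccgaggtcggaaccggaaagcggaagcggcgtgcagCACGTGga
Trmt61a: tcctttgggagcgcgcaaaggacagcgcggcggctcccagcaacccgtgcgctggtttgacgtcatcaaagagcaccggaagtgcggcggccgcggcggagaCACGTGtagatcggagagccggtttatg
Qtrt1: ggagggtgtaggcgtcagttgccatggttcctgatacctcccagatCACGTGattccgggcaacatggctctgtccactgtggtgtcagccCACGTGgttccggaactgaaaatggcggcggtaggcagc

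The E-box begins 23 bases downstream of the start in Trmt6 and 3 bases downstream in Trmt61a, and the 2 E-boxes of Qtrt1 begin 54 and 9 bases upstream. Promoter windows of 300 bases (250 before the start and 50 after it) were found for 43 of the 48 members. CACGTG was in 5 of 13 windows of modification enzymes (Trmt6, Trmt61a, Qtrt1, Pus1 and Trmt1, the last with a log2 change of -0.02), 5 of 17 of cytosolic and 1 of 13 of mitochondrial synthetases. These synthetase genes and their log2 changes were Aars1 (-0.19), Farsb (-0.14), Iars1 (-0.11), Tars1 (-0.10), Vars1 (0.09) and the mitochondrial Ears2 (-0.13), and none of them passed. The E-box was in 6.42% of all 33469 windows of the table and in 9.91% of those of 8700 genes with a tested probe set. A match is a stretch of letters and shows no binding.

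Trmt6, the subunit without the catalytic site, read 377.4, 393.0 and 409.4 (linear probe set intensity) on the unirradiated arrays and 255.0, 253.8 and 241.4 on the irradiated arrays. The groups did not overlap, and their means were 393 ± 16 and 250 ± 7.53 (SD, n = 3). The ratio of means gave a 1.57-fold fall, with a change of -0.62 ± 0.09 (SE) on the log2(intensity + 16) scale and a limma adjusted p = 0.00268. Another probe set of Trmt6 went from 325.0, 284.5 and 294.1 to 215.1, 229.2 and 212.4. The remaining one went from 181.1, 215.9 and 155.4 to 117.8, 117.5 and 120.7. Both of these also passed limma on their own, with log2 changes of -0.43 and -0.56 and adjusted p = 0.0399 and 0.0409. All 3 probe sets of the gene therefore gave a fall without overlap between groups. The gene kept its call in all 18 alternative settings, 1 of which averaged its probe sets, with log2 changes of -0.65 to -0.54 and limma adjusted p up to 0.0275.

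Trmt61a, the catalytic subunit that binds the methyl donor, read 422.4, 431.7 and 380.3 on the unirradiated arrays and 275.7, 301.2 and 239.6 on the irradiated arrays. Again every irradiated array lay below every unirradiated one. The means were 412 ± 27.4 and 272 ± 31.0 (SD, n = 3), a 1.51-fold fall, and the log2 change was -0.57 ± 0.10 (SE; adjusted p = 0.0121 by limma). The gene has 1 probe set. The 95% confidence intervals of the log2 changes of Trmt6 (-0.81 to -0.43) and Trmt61a (-0.80 to -0.35) cover nearly the same range. The call of Trmt61a ended without unirradiated replicate 1 (adjusted p = 0.0606) or 2 (0.0512), and with variances that were not allowed to depend on signal (0.0754).

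**Figure D1:**
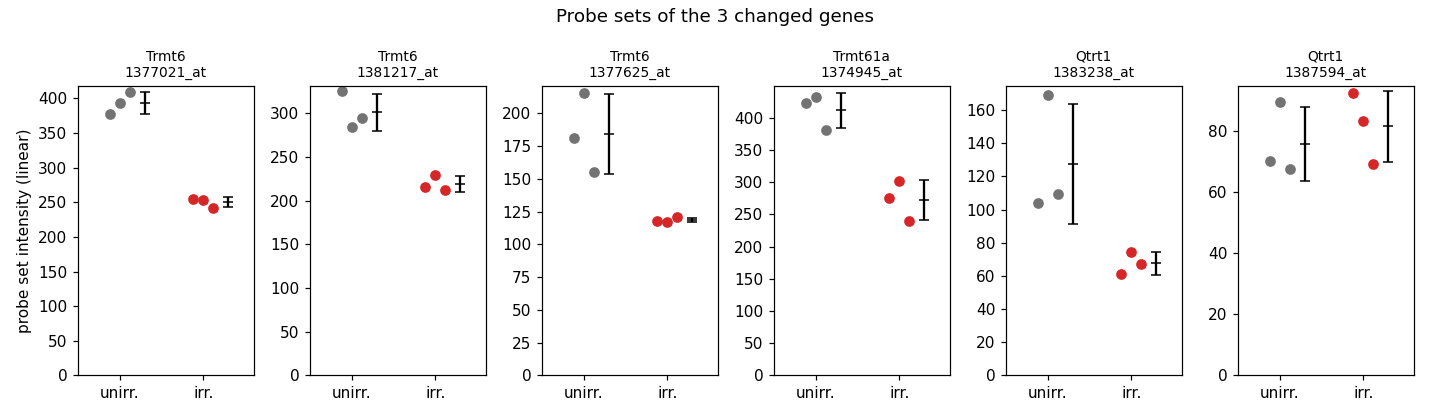
Linear probe set intensity (vertical axes, starting at 0) on 3 unirradiated (grey) and 3 irradiated (red) arrays for all probe sets of Trmt6, Trmt61a and Qtrt1; black bars are mean ± SD. The 3 probe sets of Trmt6 and that of Trmt61a separate the groups, while the probe sets of Qtrt1 differ from each other.

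Qtrt1, the catalytic subunit of the queuine transferase, read 103.9, 169.0 and 109.1 on the unirradiated arrays and 60.9, 74.7 and 67.2 on the irradiated arrays by its brighter probe set. The groups did not overlap, but unirradiated replicate 2 stood above the other two. The log2 change was -0.75 ± 0.17 (SE; limma adjusted p = 0.0398). The second probe set read 70.1, 89.7 and 67.7 and then 92.4, 83.3 and 69.3, with overlapping groups. Its log2 change was 0.09, with a 95% confidence interval from -0.23 to 0.41. It was the dimmer of the 2 without irradiation (mean 75.8 against 127) and the brighter with it (81.7 against 67.6). Within each array, the log2 signal of the first probe set minus that of the second was 0.48, 0.81 and 0.58 without irradiation and -0.50, -0.13 and -0.04 with it. The mean of this difference was 0.62 without and -0.22 with irradiation, so the probe sets disagree on Qtrt1, and the cause was not tested. With the 2 probe sets averaged the log2 change was -0.33 (limma adjusted p = 0.37), and the call of the brighter one also ended without the filter on low signal, with variances independent of signal, and without any array but unirradiated replicate 1 (adjusted p up to 0.138).

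The next modification enzymes by p were Pus1 and Nsun2, neither of which passed the adjusted threshold. Pus1, which turns uridines of cytosolic and mitochondrial tRNAs into pseudouridine, read 468.0, 624.2 and 541.2 without and 432.1, 424.3 and 362.5 with irradiation. Its groups did not overlap, and its log2 change was -0.40 ± 0.11 (SE; limma adjusted p = 0.104). Nsun2, a methyltransferase of tRNA cytosines, read 773.6, 793.6 and 840.9 without and 668.8, 598.6 and 717.2 with irradiation. Its groups did not overlap either, and its log2 change was -0.28 ± 0.09 (SE; adjusted p = 0.161). With Trmt6, Trmt61a and Qtrt1 these were the 5 of 16 modification enzymes whose irradiated arrays all lay below the unirradiated ones, and 0 lay all above. Among all tested probe sets, 8.92% lay all below and 10.2% all above.

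The other 11 modification enzymes had log2 changes from -0.20 to 0.15 and overlapping groups. Trmt112, a small protein that several methyltransferases need for activity, was at -0.20 (limma adjusted p = 0.349). Trmt1, which dimethylates a guanosine of cytosolic and mitochondrial tRNAs, was at -0.02. Trmt5, which methylates a guanosine next to the anticodon, was at -0.10. Trmt2a, a uridine methyltransferase, was at 0.03. Trmt10c, a subunit of mitochondrial RNase P as well as a methyltransferase, was at -0.07. Trmt10b was at 0.15, with irradiated replicate 3 at an intensity of 201 and the other irradiated arrays at 114 and 120. Trmt9b had the lowest signal of the members, with 16.4, 17.7 and 26.6 without and 8.1, 20.0 and 19.9 with irradiation. Its change of -0.19 carried a 95% confidence interval from -0.65 to 0.27. The median log2 change of the 16 modification enzymes was -0.15, against 0.0021 over all tested probe sets; with a pseudocount of 64 it was -0.0767.

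**Figure D2:**
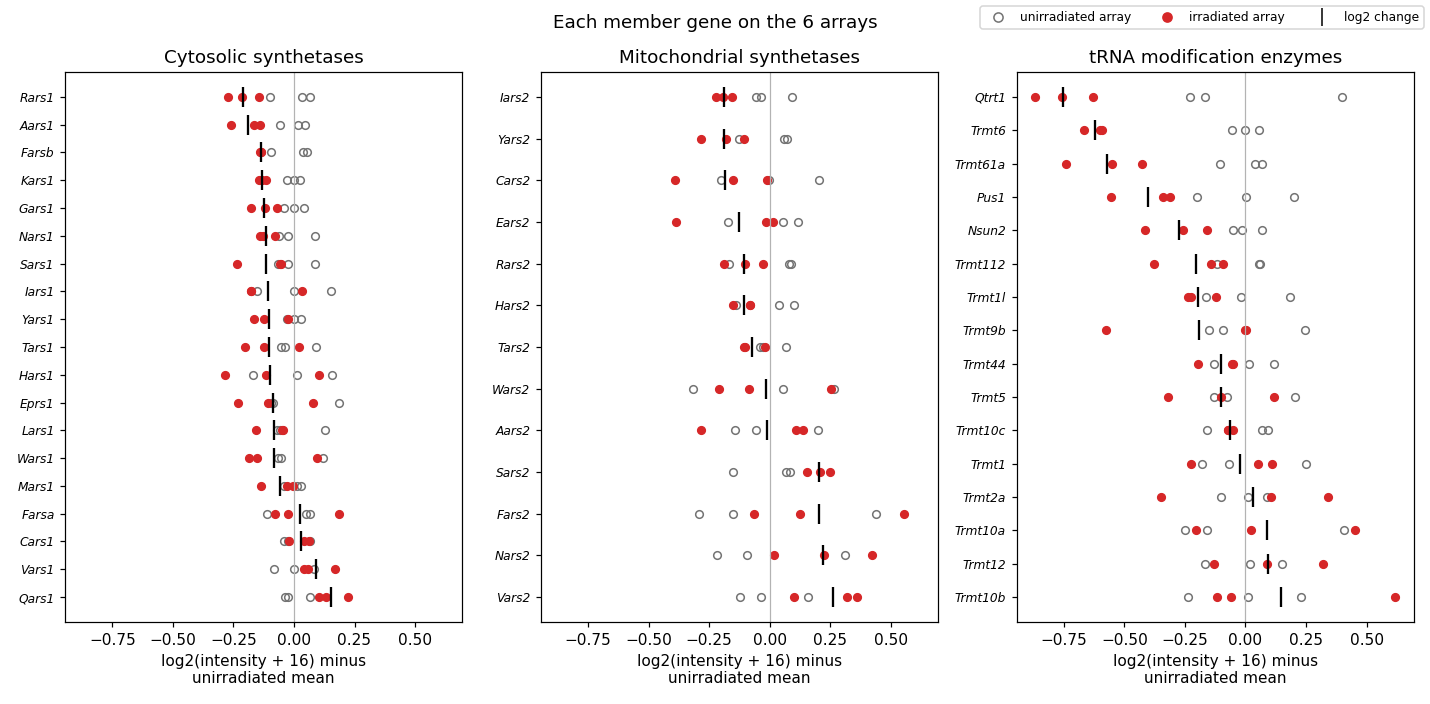
Signal of each of the 48 member genes on the 6 arrays, as log2(intensity + 16) minus the gene's unirradiated mean (horizontal axis), ordered by log2 change within 3 classes; open circles are unirradiated arrays, red circles irradiated arrays and the black bar the log2 change. Trmt6 and Trmt61a stand apart from their unirradiated arrays, while changes of cytosolic synthetases lie between -0.21 and 0.15.

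Of the 19 cytosolic synthetase genes, 0 rose, 0 fell and 19 did not pass limma's adjusted threshold. Without adjustment, 2 were lower and 0 higher at p under 0.05, against 5.91% and 7.42% of all tested probe sets. Their log2 changes ranged from -0.21 to 0.15 with a median of -0.10, and 15 of 19 were below 0, against 49.6% of all tested probe sets. The 95% confidence intervals of the 19 genes together span -0.38 to 0.35, so changes beyond that span lie outside every interval.

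Rars1, the arginyl-tRNA synthetase, read 1400.9, 1433.2 and 1278.0 without and 1237.7, 1178.2 and 1129.7 with irradiation. Every irradiated array was below every unirradiated one, and the log2 change was -0.21 ± 0.08 (SE; adjusted p = 0.241 by limma). Aars1, for alanine, read 3071.9, 3133.7 and 2918.1 without and 2712.4, 2538.7 and 2753.9 with irradiation. Its log2 change was -0.19 ± 0.07 (SE; adjusted p = 0.254). Farsb, Kars1, Gars1 and Nars1, for phenylalanine (beta subunit), lysine, glycine and asparagine, also had groups without overlap, with log2 changes of -0.14, -0.13, -0.12 and -0.12. In the opposite direction lay Qars1, for glutamine, at 980.9, 990.1 and 1054.5 and then 1107.0, 1178.8 and 1082.6. Its irradiated arrays were all above the unirradiated ones, with a log2 change of 0.15 and a limma adjusted p = 0.422. Of the 19 cytosolic synthetase genes, 6 had irradiated arrays all below the unirradiated ones and 1 all above. Among all tested probe sets these shares were 8.92% and 10.2%. Yars1, for tyrosine, had the highest signal of the members, with 4015.9, 4092.5 and 3941.6 and then 3950.2, 3578.1 and 3685.4. Its groups overlapped, and its log2 change of -0.10 turned to 0.0075 with quantile normalization. Signals of different probe sets are not levels that can be compared between genes.

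Bright probe sets in general read slightly lower after irradiation. When the tested probe sets were split by mean signal into 10 equal bins, those of the brightest bin had a median log2 change of -0.07 and 70.4% of them were below 0. This bin holds 15 of the 32 synthetase genes. With quantile normalization the median of the cytosolic synthetases was -0.0575, and with cyclic loess normalization it was -0.0355. The part of signal level in the lower synthetase values was not tested beyond these settings. Trmt6, Trmt61a and Qtrt1 were called in both of them.

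**Figure D3:**
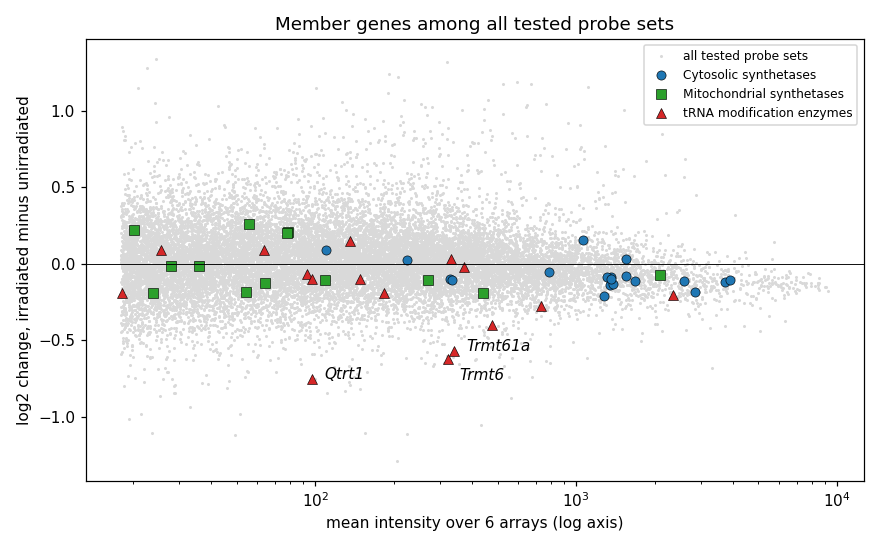
Log2 change (vertical axis) against mean intensity over 6 arrays (horizontal, log axis) for all 18625 tested probe sets (grey) and the 48 member genes by class. Trmt6, Trmt61a and Qtrt1 lie between -0.75 and -0.57, and the bright cytosolic synthetases lie close to 0 within a cloud that sits slightly below 0.

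Synthetases inside and outside the multi-synthetase complex had similar values. The 7 measured (Eprs1, Iars1, Kars1, Lars1, Mars1, Qars1 and Rars1) had a median log2 change of -0.09, with 0 called, and the 12 cytosolic synthetases outside it had a median of -0.10, with 0 called; the difference was not tested. Of the scaffold genes, Aimp2 read 2364.4, 2513.3 and 2179.4 without and 2078.8, 1945.1 and 1896.9 with irradiation. Its groups did not overlap, and the log2 change was -0.25 ± 0.08 (SE; limma adjusted p = 0.153). Eef1e1 was at -0.20 (adjusted p = 0.338), also without overlap, and Aimp1 at -0.11 (adjusted p = 0.684). Prorsd1, of a family related to enzymes that edit mischarged tRNA, was at -0.56 (adjusted p = 0.161) from a mean intensity of 52.8. Of 8 measured genes, namely scaffolds, editing factors and Tars3, a synthetase gene outside the members, 0 passed. Irradiated arrays lay all below the unirradiated ones for 3 and all above for 0, against 8.92% and 10.2% of all tested probe sets.

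The 13 mitochondrial synthetase genes also gave 0 calls, on dimmer probe sets with wider intervals. Their log2 changes ranged from -0.19 to 0.26 with a median of -0.07, and 9 of 13 were below 0. That median was -0.0243 with quantile normalization, -0.0278 with cyclic loess and -0.0226 with a gene's probe sets averaged. Iars2, for isoleucine, read 498.7, 456.2 and 449.3 without and 407.0, 417.9 and 399.2 with irradiation. Its groups did not overlap, and its log2 change was -0.19 ± 0.08 (SE; limma adjusted p = 0.356). Sars2, for serine, lay the other way without overlap, from 62.4, 76.4 and 75.3 to 87.6, 84.6 and 80.9, a log2 change of 0.20 (adjusted p = 0.56). Vars2, for valine, had the highest value of the class at 0.26, with overlapping groups. Of the 13 genes, 1 lay all below and 1 all above, against 8.92% and 10.2% of all tested probe sets. Hars2, for histidine, was at -0.11 by its brighter probe set. Its dimmer one read higher without overlap, from 21.4, 19.0 and 18.7 to 28.7, 23.2 and 27.0 (log2 change 0.24, limma adjusted p = 0.579). The confidence intervals of these 13 genes span -0.55 to 0.65 on a scale that makes changes of dim genes look smaller. Without irradiated replicate 3 the median of the class was 0.0009.

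A wider list of tRNA modification enzymes outside the members held 45 measured genes, of which 42 passed the filter on low signal. Of these 1 fell and 0 rose, against 0.564% called lower and 1.5% called higher over all tested probe sets. The other 41 did not pass, and the median log2 change of the 42 genes was -0.12. Without adjustment, 11 were lower and 0 higher at p under 0.05, and 12 had irradiated arrays all below the unirradiated ones while 0 lay all above. Over all tested probe sets these shares were 5.91% and 7.42% without adjustment, and 8.92% and 10.2% without overlap. The gene of this list that fell was Pus7l, a pseudouridine synthase-like gene, at 114.0, 142.3 and 133.7 without and 71.2, 95 and 75.9 with irradiation. Its log2 change was -0.60 ± 0.14 (SE; limma adjusted p = 0.0469), and the call ended in 8 of 18 alternative settings, among them every one that left out an array (adjusted p up to 0.168). Trdmt1, which methylates a cytosine near the anticodon of some tRNAs, was at -0.57 (adjusted p = 0.104). A second methyltransferase made of 2 subunits, which acts on a guanosine of the tRNA variable loop, was chosen after its values were seen. Its partner subunit Wdr4 read 81.7, 79.9 and 108.5 and then 58.0, 67.7 and 49.3, a log2 change of -0.51 (limma adjusted p = 0.145). Its catalytic subunit Mettl1 read 272.9, 288.6 and 295.7 and then 205.0, 191.8 and 276.9, with overlapping groups and a log2 change of -0.34 (adjusted p = 0.238). Neither passed.

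**Figure D4:**
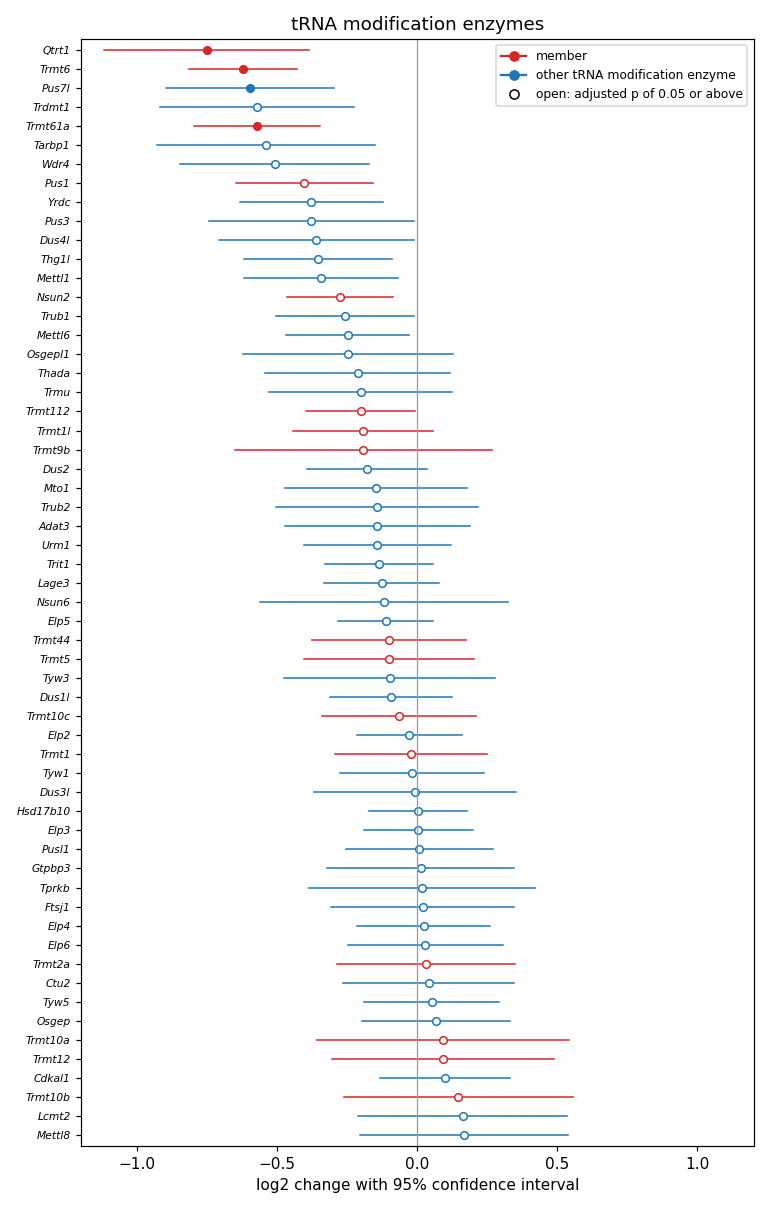
Log2 change with 95% confidence interval (horizontal axis) for the 16 member modification enzymes (red) and 42 other tRNA modification enzymes (blue), ordered by change; filled circles passed an adjusted p under 0.05. The 4 filled circles, Qtrt1, Trmt6, Pus7l and Trmt61a, all lie below 0.

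Of 24 tested tRNA processing and export genes 1 rose, 0 fell and 23 did not pass, with a median log2 change of -0.03. Over all tested probe sets 1.5% were called higher and 0.564% lower. Of the 24 genes 17 were below 0, against 49.6% of all tested probe sets. Irradiated arrays lay all below the unirradiated ones for 5 and all above for 2, against 8.92% and 10.2%. The gene that rose was Pop4, a protein subunit of the RNase P and RNase MRP enzymes, from 405.5, 440.4 and 423.9 to 567.5, 523.4 and 555.9. Its log2 change was 0.36 ± 0.08 (SE; limma adjusted p = 0.0447), and the call ended in 9 of 18 alternative settings, among them every one that left out an array and median centring (adjusted p up to 0.176). Zbtb8os, a cofactor of the tRNA ligase, was at -0.21 (adjusted p = 0.246). Of 11 factors that recruit RNA polymerase III to its genes or restrain it, 0 passed and the median was -0.0036. For 1 of these 11 the irradiated arrays lay all below the unirradiated ones and for 0 all above, against 8.92% and 10.2% of all tested probe sets. Gtf3c4 and Gtf3c3, subunits of the TFIIIC complex that binds tRNA genes, were at -0.29 (adjusted p = 0.179) and 0.28 (adjusted p = 0.524).

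Genes of the amino acid response, the ATF4-driven programme that raises synthetase and amino acid transport genes when uncharged tRNA accumulates, gave 0 calls among 32 tested, with a median log2 change of -0.07. Without adjustment, 6 were lower and 1 higher at a limma p under 0.05, against 5.91% and 7.42% of all tested probe sets. Irradiated arrays lay all below the unirradiated ones for 9 genes and all above for 1, against 8.92% and 10.2%. The gene higher by both counts was Jdp2, at 0.35 (limma adjusted p = 0.117), named after its values were seen. Trib3, a target that feeds back on ATF4, read 3163.6, 3081.0 and 2840.8 without and 2628.1, 2365.8 and 2178.3 with irradiation. Its groups did not overlap, and its log2 change was -0.34 ± 0.08 (SE; limma adjusted p = 0.0614); without irradiated replicate 1 it passed (-0.41, adjusted p = 0.0395). It was at -0.24 with quantile normalization (adjusted p = 0.153) and at -0.26 by a probe set without a suffix in its identifier (adjusted p = 0.572). The glutamine transporter gene Slc1a5 was at -0.31 (adjusted p = 0.0957). Atf4 itself was at -0.13 (adjusted p = 0.485) and the asparagine synthetase gene Asns at 0.05 (adjusted p = 0.869), both named after their values were seen.

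The letters TGATGCAA, the core of the element through which ATF4 and C/EBP factors act in amino acid response genes, were in the promoter windows of 7 of 17 cytosolic synthetases (Aars1, Cars1, Iars1, Mars1, Nars1, Tars1 and Yars1), 0 of 13 mitochondrial synthetases and 0 of 13 modification enzymes, on either strand. They were in 0.795% of all windows and 0.517% of windows of genes with a tested probe set. Over the whole array they were in 2 of 70 genes called lower (2.86%). Stretches with 6 of the sites in synthetase genes are shown. None of these synthetase genes passed, and none of the members that fell holds the letters. The match is in capitals and reads TTGCATCA where it lies on the opposite strand. Coordinates are RefSeq, GRCr8: Cars1 chr1:208225335-208225362 (minus), Iars1 chr17:15193659-15193686 (minus), Mars1 chr7:65023753-65023780 (minus), Nars1 chr18:60275779-60275806 (minus), Tars1 chr2:62114812-62114839 (minus) and Yars1 chr5:146820191-146820212 (plus).
Cars1: ggcgccgcggTTGCATCAgattctggaa
Iars1: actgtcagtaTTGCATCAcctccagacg
Mars1: cccgttccggTTGCATCAgcgtgggctc
Nars1: ctaggtgatcTGATGCAAcgcttcagtc
Tars1: tggcgtcccgTTGCATCAgctggttagc
Yars1: cgagctcagcTGATGCAAcctg

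The log2 changes of the 7 genes with the letters were -0.19 for Aars1, 0.03 for Cars1, -0.11 for Iars1, -0.06 for Mars1, -0.12 for Nars1, -0.10 for Tars1 and -0.10 for Yars1, and none passed. The ETS core CCGGAAG, also searched on both strands, was in 19 of 43 member windows (9 of 17 cytosolic, 5 of 13 mitochondrial and 5 of 13 modification), against 18.8% of windows of genes with a tested probe set. In the member windows, matches of different motifs overlapped in 0 cases.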

How the data were processed

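The deposited table holds intensities of probe sets, on a linear scale, as made by the authors. BRB ArrayTools 3.3.0 processed the data, per the submitters' design text; the summary method is not given in the sources used here. Trimmed means (2% at each end) were 150.04 to 150.05 on the 6 arrays, so the deposited table was kept as scaled. Of 31099 probe sets, 57 controls and those up to the 40th percentile of mean intensity were left out, which kept 18625. The log2(intensity + 16) of each value was used, which makes changes of dim genes look smaller. Limma 3.58.1 in R 4.3.3 (lmFit, eBayes with an intensity trend, two-sided, no covariate) compared 3 irradiated with 3 unirradiated arrays, with Benjamini-Hochberg adjustment over all tested probe sets; the median SE was 0.14. The procedure was tested on simulated data. Gene names came from the platform annotation (20826 probe sets with 1 symbol, 436 with several, 9780 with none), and 0 of 48 member symbols differed from RefSeq by Entrez ID. Promoters were matched by symbol; the sequence of 1 site is not reported here. Values in every array are given for members past the threshold, for those with an unadjusted p under 0.05 and no overlap, for both ends of the signal range and for other genes chosen for contrast; in related lists, genes past the threshold and the 2 of smallest p are named. The members, lists and motifs were chosen with earlier results of these data known. Number of arrays limits the precision. Alternatives were other pseudocounts, a floor, normalizations, filters, variance models and probe set rules, and leaving out each array.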

Additional observations from a re-analysis of the deposited data

How the results depend on the processing

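The number of members called higher was 0 in all 18 alternative settings, and the number called lower was 3 in most of those that kept all arrays. It was 2 without a filter or with a gene's probe sets averaged, 1 without an intensity trend (Trmt6), and 1 to 2 when 1 array was left out. Trmt6 was called in all 18. Over all probe sets, 385 calls became 223 without a filter, 170 without the trend, and 201 to 286 when 1 array was left out. The median log2 change of cytosolic synthetases was -0.0575 with quantile normalization and -0.0355 with cyclic loess, and -0.12 to -0.07 with 1 array left out; Yars1 turned to 0.0075 with quantile normalization. The median of the modification enzymes was -0.0767 with a pseudocount of 64 and -0.17 to -0.10 with 1 array left out, and that of the mitochondrial synthetases -0.11 to 0.0009. The mitochondrial median was -0.0243, -0.0278 and -0.0226 with quantile normalization, cyclic loess and averaged probe sets. The cause of these shifts was not tested. With the filter at the 60th percentile, 38 of 48 members were tested. No fit with paired samples was made, since the labels do not pair them and the replicate numbers only name the samples.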

Other observations

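The E-box CACGTG that the promoter windows of Trmt6, Trmt61a and Qtrt1 share was also counted over the called genes of the whole array. It was in 22 of 70 genes called lower (31.4%), which include these 3, in 13 of 176 called higher (7.39%) and in 862 of 8700 with a tested probe set (9.91%), counting genes with a window in the table. For the ETS core CCGGAAG the shares were 22.9%, 20.5% and 18.8%. The letters TGATGCAA were in 2 of the 70 genes called lower (2.86%), 0 of the 176 called higher and 0.517% of those tested. These shares were computed after the values of the 3 genes were seen and carry no test.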
